A study of Mus musculus with 4 samples.

Results

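The small leucine-rich proteoglycans are secreted matrix proteins whose cores are built from leucine-rich repeats. Their genes were examined in soleus muscle of dystrophic mice after a year of monthly cell infusions. The 9 genes followed here, Dcn, Bgn, Aspn, Fmod, Lum, Prelp, Omd, Ogn and Podn, were chosen by symbol from the 24054 symbols of the deposited count table, and all 9 were among the 13652 genes with enough counts to be tested. Both groups were female *mdx* mice (C57BL/10ScSn-DMDmdx/J), which lack dystrophin, and both received femoral vein infusions every month from 8 weeks of age until the 12-month endpoint. mCDC mice received mouse cardiosphere-derived cells at passage 5, a stromal cell type grown from the heart of a single C57BL/10ScSn/J donor, and vehicle mice received culture medium alone. Each group had 2 soleus libraries, bulk RNA-seq of the whole muscle. The sample records number the replicates but do not tie them to animals, so the spread between libraries is the only error available.

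Proteins of this family coat collagen fibrils, setting their diameter and spacing, and hold growth factors such as TGF-beta in the matrix. In muscle they are made mainly by fibroblasts of the connective tissue layers and by cells of the tendon ends rather than by the fibers. Decorin is known for restraining TGF-beta and myostatin, and biglycan for binding collagen VI around the fibers.

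Lumican, fibromodulin and podocan transcripts were lower in mCDC than in vehicle muscles, with log2 fold changes of -0.92 to -1.02, and the other 6 genes were not called. Levels are given in CPM, which scales each count to a common library size, with libraries balanced by the trimmed mean of M-values. The 9 genes summed to 290 CPM in mCDC replicate 1, 266 in mCDC replicate 2, 350 in vehicle replicate 1 and 466 in vehicle replicate 2. The group means were 278 ± 16.8 (SD, n = 2) and 408 ± 82.4 (SD, n = 2), a ratio of 0.681. The study's thresholds were used for calls, more than 1.5-fold and p below 0.05 before adjustment, in edgeR's quasi-likelihood test. Lum, Fmod and Podn were called lower, 3 of 9, where 2.74% of all genes tested were called lower. No member was called higher, where 1.26% of all genes were. 8 of the 9 log2 fold changes were below 0, against 51.6% of all genes, and the median was -0.51, against -0.0094 over all genes. In bulk tissue, fewer cells that make a transcript and less of it per cell cannot be told apart.

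No member passed a Benjamini-Hochberg adjusted p of 0.05 over all genes tested. edgeR's quasi-likelihood test gave 0 such genes in the whole table (0%) and 947 with an unadjusted p under 0.05 (6.94%), and DESeq2, run on 18132 genes with its own filter, gave 48 and 718. 5 members, all lower, had an unadjusted p under 0.05, where 4.09% of all genes did so in that direction. Leaving out mCDC replicate 1 raised the count of members called lower to 6, and leaving out vehicle replicate 1 raised it to 4. It fell to 2 when vehicle replicate 2 was left out and was 3 when mCDC replicate 2 was. Lower calls over all genes moved as well, from 374 to 544 and 237 when mCDC replicate 1 or 2 was left out, and to 834 and 350 when vehicle replicate 1 or 2 was.

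**Figure D1:**
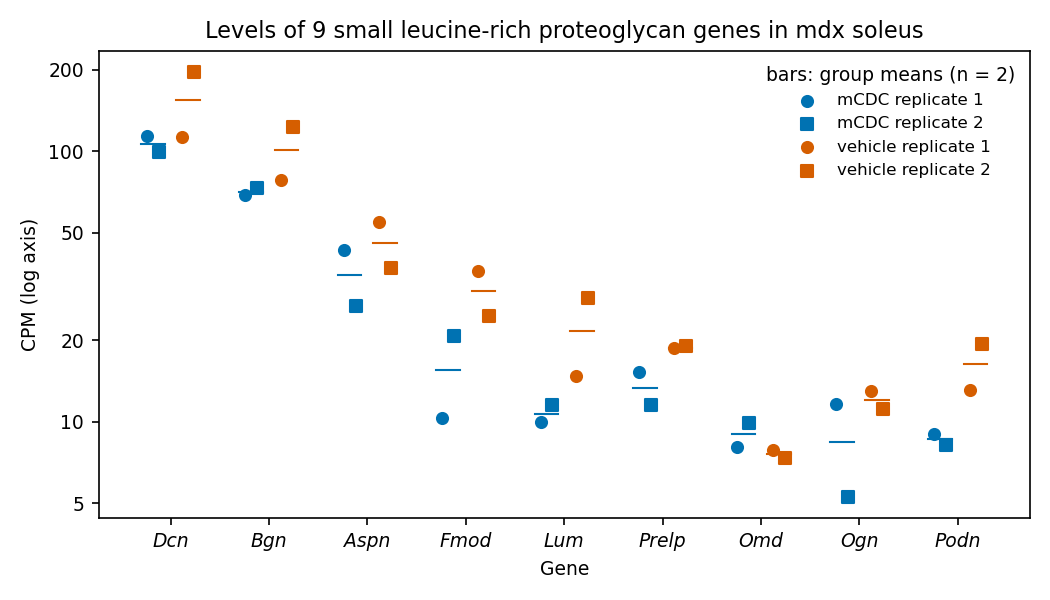
CPM of the 9 genes on a log axis, with a point for each library (blue, mCDC; orange, vehicle; circles, replicate 1; squares, replicate 2) and short bars at the group means. Both mCDC libraries lie below both vehicle libraries for Bgn, Fmod, Lum, Prelp and Podn, and above them for Omd.

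Lumican, fibromodulin and prolargin belong to the class with keratan sulfate chains or sites for them. Lumican and fibromodulin bind overlapping regions of type I collagen, and fibromodulin is abundant in tendon and cartilage. Lum had 10 and 11.5 CPM in mCDC replicates 1 and 2 and 14.8 and 28.6 CPM in vehicle replicates 1 and 2. The groups did not overlap, and vehicle replicate 2 stood well above the other 3 libraries. The level was 10.7 ± 1.04 CPM (SD, n = 2) against 21.7 ± 9.72 (SD, n = 2). This was a log2 fold change of -1.02 (standard error 0.29, 95% interval -1.69 to -0.34, edgeR adjusted p = 0.626). Without vehicle replicate 2 the log2 fold change of Lum was -0.47 and the call was lost.

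Fmod had 10.3 and 20.8 CPM in mCDC replicates 1 and 2 and 36.1 and 24.7 CPM in vehicle replicates 1 and 2. Here vehicle replicate 1, not 2, was the highest, and the groups did not overlap, although mCDC replicate 2 came close to vehicle replicate 2. The log2 fold change was -0.97 (standard error 0.32, 95% interval -1.71 to -0.23, edgeR adjusted p = 0.673). It was -0.54 without mCDC replicate 1 and -0.66 without vehicle replicate 1, and the call was lost in both cases. Without mCDC replicate 2 it was -1.55, since mCDC replicate 1 alone then stood for its group.

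Podn encodes podocan, a member of a separate class that binds collagen. Podn had 9.01 and 8.22 CPM in mCDC replicates 1 and 2 and 13.1 and 19.4 CPM in vehicle replicates 1 and 2. The mCDC libraries were close to each other and below both vehicle libraries. The log2 fold change was -0.92 (standard error 0.23, 95% interval -1.44 to -0.40, edgeR adjusted p = 0.567). Podn was the only member called lower with each of the 4 libraries left out in turn, at -0.61 to -1.17.

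With DESeq2 the log2 fold changes of Lum, Fmod and Podn were -1, -0.96 and -0.90, with adjusted p of 0.171, 0.280 and 0.177. Over 8 alternatives of scaling, filter, test, block and trend, which are named with the processing, all 3 were called in each, with adjusted p from 0.171 to 0.780 for Lum, 0.280 to 0.780 for Fmod and 0.177 to 0.774 for Podn.

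**Figure D2:**
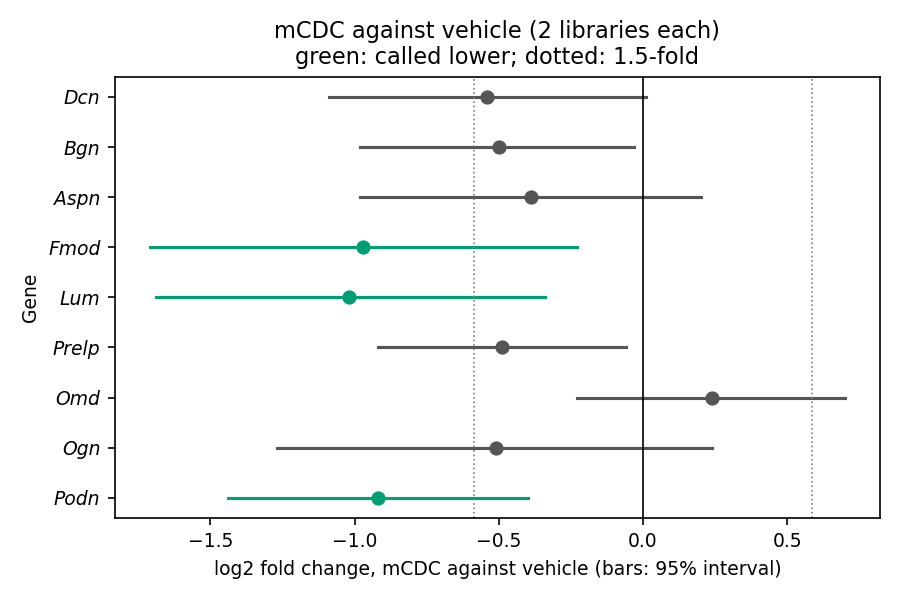
log2 fold change of each gene, mCDC against vehicle, with the 95% interval of the edgeR fit; genes called lower are green and dotted lines mark 1.5-fold. The intervals of Lum, Fmod, Podn, Bgn and Prelp lie below 0, and those of Dcn, Aspn, Ogn and Omd include 0.

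Decorin and biglycan carry chondroitin or dermatan sulfate chains and were the most abundant members. Dcn had 114 and 98.9 CPM in mCDC replicates 1 and 2 and 113 and 196 CPM in vehicle replicates 1 and 2. Only vehicle replicate 2 was high, and vehicle replicate 1 lay within the mCDC range. The log2 fold change was -0.54 (standard error 0.24, 95% interval -1.09 to 0.01, edgeR adjusted p = 0.718), and it was -0.09 without vehicle replicate 2.

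Bgn had 68.9 and 73.0 CPM in mCDC replicates 1 and 2 and 78.4 and 123 CPM in vehicle replicates 1 and 2. The groups did not overlap, but vehicle replicate 1 was close to the mCDC libraries. The log2 fold change was -0.50 (standard error 0.21, 95% interval -0.98 to -0.03, edgeR adjusted p = 0.714), short of 1.5-fold, and -0.15 without vehicle replicate 2. Without vehicle replicate 1, Dcn and Bgn were at -0.88 and -0.79 and both were called lower. Dcn was also called without mCDC replicate 1, at -0.64.

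Aspn, which encodes asporin, a relative of decorin with an aspartate-rich end and no such chain, had 43.0 and 26.8 CPM in mCDC replicates 1 and 2 and 54.6 and 37.0 CPM in vehicle replicates 1 and 2. Replicate 1 was the higher library in each group and the groups overlapped. Its log2 fold change of -0.39 had a 95% interval of -0.98 to 0.20, and was -0.77 and called without mCDC replicate 1 but -0.09 without mCDC replicate 2 and -0.08 without vehicle replicate 1.

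Prelp encodes prolargin, which links basement membranes to the collagen beneath. It had 15.3 and 11.5 CPM in mCDC replicates 1 and 2 and 18.7 and 19.0 CPM in vehicle replicates 1 and 2. The vehicle libraries were nearly equal and both above the mCDC libraries. The log2 fold change was -0.49 (standard error 0.19, 95% interval -0.92 to -0.06, edgeR adjusted p = 0.713), short of 1.5-fold, and it was -0.71 and called without mCDC replicate 1 but -0.30 without mCDC replicate 2.

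Osteoglycin (Ogn) and osteomodulin (Omd) take their names from bone. Ogn had 11.6 and 5.30 CPM in mCDC replicates 1 and 2 and 13.0 and 11.2 CPM in vehicle replicates 1 and 2. mCDC replicate 2 alone was low and the groups overlapped, with a log2 fold change of -0.51 and a 95% interval of -1.27 to 0.24. The value was -1.19, and called, without mCDC replicate 1, and -0.07 without mCDC replicate 2.

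Omd was the only member with a log2 fold change above 0. It had 8.07 and 9.91 CPM in mCDC replicates 1 and 2 and 7.90 and 7.35 CPM in vehicle replicates 1 and 2. Both mCDC libraries were the higher, by a small margin, at a log2 fold change of 0.24 (standard error 0.20, 95% interval -0.23 to 0.70, edgeR adjusted p = 0.809). The difference between Omd and the other members was not tested.

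Of the 9 members, 5 were lower without overlap between the groups and 1 was higher without overlap, while 19.5% and 19.2% of all genes tested did so in these directions. Within the vehicle group the members did not vary as a block. Vehicle replicate 2 had the highest level of 5 members, Dcn, Bgn, Lum, Prelp and Podn, and vehicle replicate 1 that of Aspn, Fmod and Ogn. mCDC replicate 2 had the lowest level of 5 members and the highest of Omd.

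**Figure D3:**
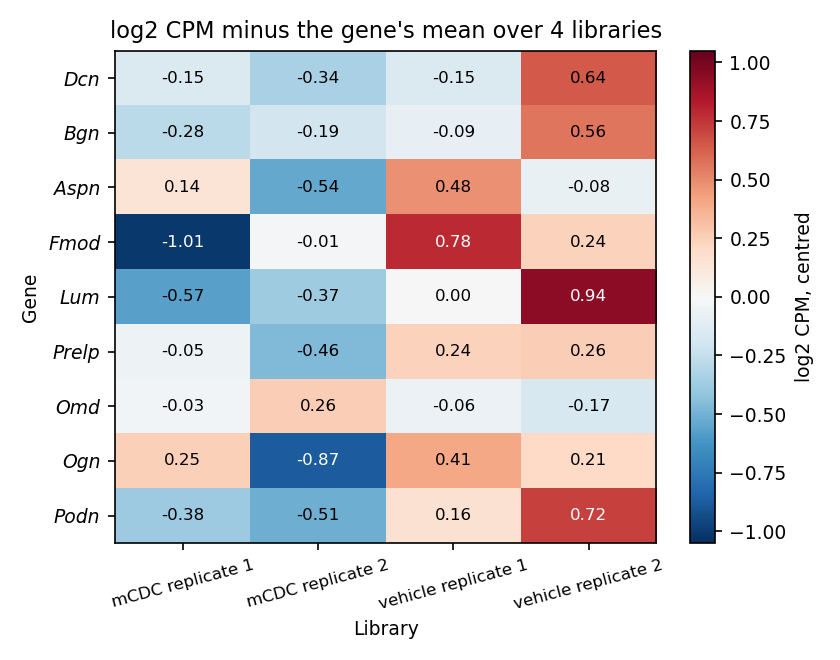
log2 CPM of each gene in each library after subtracting the gene's mean over the 4 libraries (red, above the mean; blue, below). Vehicle replicate 2 is the red column for Dcn (0.64), Bgn (0.56), Lum (0.94) and Podn (0.72), whereas Fmod (0.78), Aspn (0.48) and Ogn (0.41) are highest in vehicle replicate 1.

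**Figure D4:**
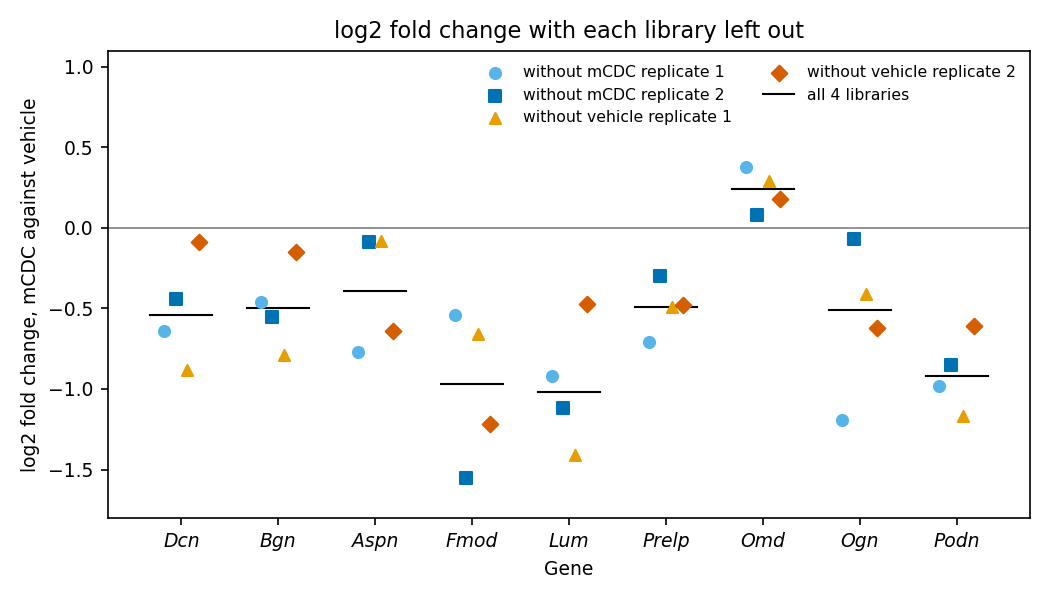
log2 fold change of each gene with each library left out in turn (symbols) and with all 4 libraries (black bars). Every value of Omd stays above 0 and every value of the other 8 genes below 0, but Dcn, Bgn, Aspn, Ogn and Omd come within 0.15 of 0 when a certain library is left out.

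Set against transcript length (the longest protein-coding transcript in GENCODE M21), the order of levels was decorin, biglycan, asporin and then the rest. Dcn ranged from 56.3 to 112 CPM per kilobase over the 4 libraries, Bgn from 28.5 to 50.7 and Aspn from 11.5 to 23.4, and these ranges did not overlap. Fmod (3.31 to 11.6) and Lum (4.08 to 11.7) just reached the lowest Aspn value in CPM per kilobase, although Aspn was higher than both in each library. Fmod, Lum, Prelp (3.18 to 5.24), Ogn (2.07 to 5.06), Podn (2.59 to 6.13) and Omd (3.27 to 4.41) overlapped in their ranges of CPM per kilobase, although some pairs kept their order in each library, with Lum above both Podn and Omd and Fmod above Podn. Decorin and biglycan together made up most of the family sum in each library, with Dcn at 32.3% to 42.1% and Bgn at 22.4% to 27.4% of the summed CPM. With the median in place of the longest transcript, 7 members kept their rank.

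Ratios within a library, which do not depend on its scaling, were compared for 3 pairs. Bgn over Dcn was 0.606 and 0.737 in the mCDC libraries, against 0.693 and 0.626 in the vehicle libraries, a difference of 0.02 on the log2 scale. Fmod over Lum was 1.03 and 1.82 against 2.43 and 0.864 in the same order, and Aspn over Dcn was 0.378 and 0.271 against 0.483 and 0.189, with differences of -0.08 and 0.09 on the log2 scale. The groups overlapped in all 3 ratios (exact permutation test, two-sided, p = 1 for each, where 2 libraries against 2 cannot go below 0.333). For the latter pairs the vehicle libraries lay far apart, with an SD of 1.06 for Fmod over Lum and 0.96 for Aspn over Dcn on the log2 scale (n = 2). With each library left out, the difference ran from -0.83 to 0.67 for Fmod over Lum and -0.59 to 0.76 for Aspn over Dcn. For Bgn over Dcn it ran from -0.12 to 0.16.

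Most of the members lie in clusters of the mouse genome (GRCm38, the mm10 build named in the submitters' processing notes; GENCODE M21 coordinates). Dcn (chr10:97479609-97518143) and Lum (chr10:97565128-97572703) are neighbours with 47.0 kilobases between them. Both were highest in vehicle replicate 2, as were Bgn, Prelp and Podn, which lie on other chromosomes. Prelp (chr1:133910304-133921414) and Fmod (chr1:134037254-134048277) lie 116 kilobases apart on opposite strands. Aspn (chr13:49544443-49567565), Omd (chr13:49582462-49592822) and Ogn (chr13:49608046-49624501) follow each other within gaps of 14.9 and 15.2 kilobases. In that cluster the log2 fold change was -0.39 for Aspn, 0.24 for Omd, which lies in the middle, and -0.51 for Ogn. Bgn (chrX:73483602-73495933) and Podn (chr4:108014791-108096445) stand apart from the clusters.

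The chr13 cluster lies within Cenpp, a gene on the opposite strand, which shares 7 exon bases with Aspn and 0 with Omd and Ogn, and which had 128 counts in all 4 libraries together. Prelp shares 350 exon bases with Gm15851, an antisense gene, and of the 31-base words in Prelp transcripts, 9% were found in 1 other gene. Whether the counting used strand is not given in the sources used here, so reads of Prelp and of this antisense gene cannot be told apart over the shared bases. Omd shares 6.46% of its words with other genes. It had expected counts per gene that were not whole in all 4 libraries, as did Bgn and Podn. Part of the reads of these genes was thus divided with transcripts of other genes. Podn overlaps Scp2, a gene on the same strand with 16086 counts over all libraries, but shares 0 exon bases with it. Dcn, Bgn, Lum and Podn shared under 0.5% of their words, and Aspn, Fmod and Ogn shared none.

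The stretches from 250 bases before to 50 after the annotated start (RefSeq, GRCm38.p6) were searched on both strands for a TATA box (TATAAA), a GC box (GGGCGG), a SMAD motif (CAGAC) and an AP-1 site (TGANTCA). Such stretches were found for 7 of the 9 members, not for Dcn and Lum, with 2 start sites for Podn. They are shown for Fmod (chr1:134037004-134037303, plus strand) and the first Podn site (chr4:108031905-108032204, minus strand), which were called lower, for Bgn (chrX:73483351-73483650, plus strand), an abundant member, and for Omd (chr13:49582212-49582511, plus strand), the only member above 0, with matches in capitals.
Fmod: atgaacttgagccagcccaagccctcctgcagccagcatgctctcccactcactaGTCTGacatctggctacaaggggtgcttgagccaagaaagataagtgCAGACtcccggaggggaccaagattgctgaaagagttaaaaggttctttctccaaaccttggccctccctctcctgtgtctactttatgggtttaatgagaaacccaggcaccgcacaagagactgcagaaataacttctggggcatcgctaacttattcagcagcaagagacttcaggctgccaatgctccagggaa
Podn: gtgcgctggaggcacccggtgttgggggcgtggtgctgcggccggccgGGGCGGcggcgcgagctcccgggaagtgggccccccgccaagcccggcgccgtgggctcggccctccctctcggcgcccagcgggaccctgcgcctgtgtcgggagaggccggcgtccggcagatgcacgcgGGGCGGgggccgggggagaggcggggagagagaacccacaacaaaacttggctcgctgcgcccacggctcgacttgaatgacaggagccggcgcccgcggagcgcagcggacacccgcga
Bgn: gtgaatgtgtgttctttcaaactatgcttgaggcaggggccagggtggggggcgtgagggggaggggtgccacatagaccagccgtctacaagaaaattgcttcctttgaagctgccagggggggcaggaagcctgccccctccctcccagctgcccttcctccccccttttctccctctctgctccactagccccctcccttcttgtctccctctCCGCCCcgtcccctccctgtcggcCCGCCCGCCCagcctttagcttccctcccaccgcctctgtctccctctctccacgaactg
Omd: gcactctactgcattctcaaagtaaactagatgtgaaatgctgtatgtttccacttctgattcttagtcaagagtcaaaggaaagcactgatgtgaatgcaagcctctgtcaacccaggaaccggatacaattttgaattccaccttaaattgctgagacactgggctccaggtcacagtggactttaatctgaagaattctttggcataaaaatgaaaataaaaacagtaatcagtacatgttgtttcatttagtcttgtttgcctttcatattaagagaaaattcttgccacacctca
The first Podn stretch was 77.0% G and C with 2 GC boxes. The second (chr4:108030937-108031236) was 63.0% with 0 GC boxes and 1 SMAD motif. The Bgn stretch was 63.7% G and C with 3 GC boxes, of which a pair overlaps by some bases, while the Fmod stretch was 51.0% with 2 SMAD motifs and no GC box, and the Prelp stretch 55.3% with 3 SMAD motifs and no GC box. The median over all 32851 stretches was 52.7%. The Omd stretch was 37.7% G and C and held none of the 4 motifs. Over all stretches, 35.7% held a GC box, 49.6% a SMAD motif, 13.6% a TATA box and 7.81% an AP-1 site. None of the members' stretches held an AP-1 site, and those of Aspn and Ogn held 2 TATA box matches each, which in Ogn overlap as 1 stretch read on both strands.

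Of the 9 other genes of the family on a fixed list, 4 were tested. Chad, which encodes chondroadherin, a cell-binding cartilage and tendon protein, was called lower, as were 2.74% of all genes. It had 1.70 and 2.88 CPM in mCDC replicates 1 and 2 and 5.57 and 3.67 CPM in vehicle replicates 1 and 2, a log2 fold change of -1.02 (standard error 0.34, edgeR adjusted p = 0.673). As for Fmod, vehicle replicate 1 was the highest library and mCDC replicate 1 the lowest, and the Chad call was lost when mCDC replicate 1 was left out. Ecm2, next to Aspn on the chromosome, had a log2 fold change of -0.48 without a call, and Chadl and Tsku had -0.33 and 0.38. Kera, Optc, Nyx and Podnl1 had between 8 and 27 counts over all libraries and Epyc had 0, so these genes were not tested.

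Of 25 genes for enzymes that build the sugar linker and chondroitin and dermatan sulfate, 22 were tested, 0 were called higher and 2 lower (over all genes, 1.26% and 2.74%), with a median log2 fold change of -0.04. Csgalnact1, which starts chondroitin chains, had a log2 fold change of -0.78 and Chst11, which sulfates them, one of -0.70. The number called lower in this list was 0 without mCDC replicate 1, mCDC replicate 2 or vehicle replicate 2, and 0 with DESeq2. Of 8 keratan sulfate genes, 5 were tested and 1 was called lower, the galactosyltransferase B4galt4 at -0.66. B4galt1, which acts on many glycans, was at 0.38 and short of 1.5-fold. The B4galt4 call was lost without mCDC replicate 1, mCDC replicate 2 or vehicle replicate 2, and with DESeq2.

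Among the collagens that these proteoglycans bind, values below 0 were the rule. All 12 tested had log2 fold changes below 0, with a median of -0.58, and 4 were called lower (over all genes, 51.6% and 2.74%). These were the type I chain gene Col1a2 at -0.61, the type VI chain genes Col6a1 and Col6a2 at -0.62 and -0.59, and Col12a1, whose product sits on fibril surfaces, at -0.74. Col1a2 had 64.5 and 58.4 CPM in mCDC replicates 1 and 2 and 76.3 and 112 CPM in vehicle replicates 1 and 2. The groups overlapped for Col1a1, Col3a1, Col5a1, Col5a2 and Col5a3, and not for the other collagens tested. 7 collagens were called lower without vehicle replicate 1, and 2 when either mCDC replicate 2 or vehicle replicate 2 was left out, fits in which lower calls over all genes were 834, 237 and 350. The collagen sum was 400 and 343 CPM in mCDC replicates 1 and 2 and 385 and 614 CPM in vehicle replicates 1 and 2. It overlapped between the groups, and only vehicle replicate 2 was high. The family sum divided by the collagen sum was 0.725 and 0.775 in the mCDC libraries, against 0.908 and 0.759 in the vehicle libraries, so the groups overlapped.

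Growth factors, receptors and other partners of the family showed no common direction. Of 27 tested, Cd44, a hyaluronan receptor, was called higher at 0.84 and 0 were called lower. Over all genes, 1.26% were called higher and 2.74% lower. The median log2 fold change of the partners was -0.05. The Cd44 groups overlapped, with 10.8 and 25.5 CPM in mCDC replicates 1 and 2 and 11 and 9.20 CPM in vehicle replicates 1 and 2, so that only mCDC replicate 2 was high. That call was lost without mCDC replicate 2 or vehicle replicate 2. The numbers of partners called higher and lower changed with the library left out, as did the calls over all genes. Tgfb1, a TGF-beta ligand gene, was at -0.08 and Tgfbr2, for a receptor chain, at -0.22. Of 13 genes for processing and cleaving enzymes, 9 were tested and Mmp2, a gelatinase, was called lower (over all genes, 2.74%). Mmp2 had 23.3 and 23.9 CPM in mCDC replicates 1 and 2 and 31.1 and 43.3 CPM in vehicle replicates 1 and 2, a log2 fold change of -0.66. Without vehicle replicate 2 the Mmp2 call was lost. The numbers of these enzyme genes called lower and higher changed with the library left out, as did the calls over all genes.

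Markers of connective tissue cells were also lower in part. Of 12 markers of fibro-adipogenic progenitors, the fibroblast-like cells of muscle, 11 had log2 fold changes below 0, with a median of -0.34, and 2 were called lower, Pdgfra at -0.74 and Smoc2 at -0.69 (over all genes, 51.6% below 0 and 2.74% called lower). Their summed level was 560 and 447 CPM in mCDC replicates 1 and 2 and 528 and 811 CPM in vehicle replicates 1 and 2, so that vehicle replicate 2 was the high library, as for Dcn and Lum. None was at 0. The family sum divided by this marker sum was 0.518 and 0.595 in the mCDC libraries, against 0.662 and 0.575 in the vehicle libraries, and overlapped between the groups. Divided by Pdgfra alone, Dcn was 17 and 19 in the mCDC libraries, against 16.2 and 15.2 in the vehicle libraries, thus higher in both mCDC libraries, as were Omd and 55.2% of all genes tested, for a divisor that was itself called lower. The other 7 members overlapped between the groups on this ratio, with Lum at 1.49 and 2.20 against 2.13 and 2.21 and the family sum at 43.2 and 51.1 against 50.1 and 36. The part of these cells in the lower levels of Lum, Fmod and Podn was not tested.

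Of 12 tenocyte markers, 11 were tested, with 3 called lower, 1 higher and none at 0, and 8 had log2 fold changes below 0, with a median of -0.38. Over all genes, 2.74% were called lower, 1.26% higher and 51.6% were below 0. Tnmd, which encodes the tendon protein tenomodulin, had 1.29 and 1.69 CPM in mCDC replicates 1 and 2 and 4.31 and 3.31 CPM in vehicle replicates 1 and 2. Like Fmod and Chad, Tnmd was highest in vehicle replicate 1 and lowest in mCDC replicate 1, as were Mkx, Cilp2 and Cpxm2. Comp and Chodl were also called lower, at -0.76 and -0.87, but were lowest in mCDC replicate 2. Thbs4 and Col22a1 were highest in vehicle replicate 2, and Scx, Egr1 and Tnc in mCDC replicate 2. Scx, a tendon transcription factor, was called higher at 0.86 and lies inside Bop1, a gene on the opposite strand with 4075 counts over all libraries, with which it shares 0 exon bases. The summed level of the list was 241 to 379 CPM in mCDC and 283 to 361 CPM in vehicle libraries. Egr1, an immediate-early gene on the list, had the widest CPM range within each group, at 37.8 and 122 CPM in mCDC and 25.3 and 73.3 CPM in vehicle libraries. Without Egr1, left out after its values were seen, the sums were 204 and 257 CPM in mCDC and 257 and 287 CPM in vehicle libraries. The list's part in the lower level of Fmod was not tested.

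**Figure D5:**
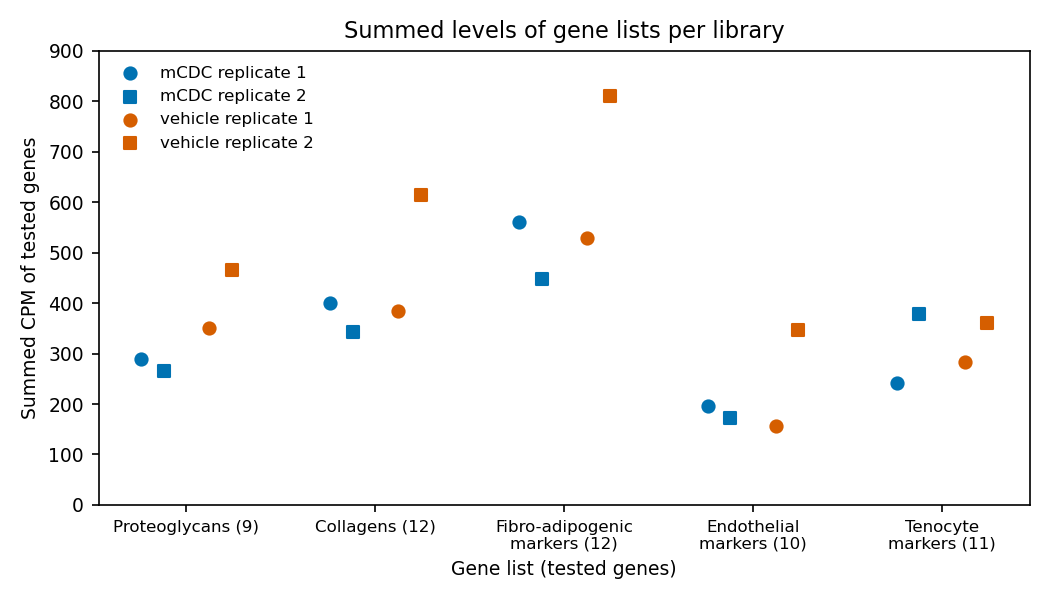
Summed CPM of the tested genes of 5 lists in each library (blue, mCDC; orange, vehicle; circles, replicate 1; squares, replicate 2). The proteoglycan sum does not overlap between the groups, and vehicle replicate 2 is the highest library for the proteoglycan, collagen, fibro-adipogenic and endothelial lists.

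The remaining lists and whole-library values were as follows. Library totals ran from 22481391 to 27187425 expected counts. The 12 soleus fiber markers summed to 138000 to 154000 CPM in mCDC and 136000 to 143000 CPM in vehicle libraries, with none called. All 10 endothelial markers had log2 fold changes below 0, where 51.6% of all genes did, and none was called. For these markers vehicle replicate 2 stood apart at a summed 346 CPM against 156 to 197 in the other 3 libraries. Of 12 macrophage markers, 1 was called higher, Cd68, and 1 lower, Csf1r (over all genes, 1.26% and 2.74%). The Cd68 groups overlapped, with mCDC replicate 2 alone high, at 15.4 CPM against 2.71 to 4.15. The macrophage list had 68.8 and 90.7 CPM in mCDC and 60.8 and 94.4 CPM in vehicle libraries in sum. Of 10 mural cell markers, Cspg4 was called higher and Rgs5 lower (over all genes, 1.26% and 2.74%). The mural list, which includes the fiber gene Des, summed to 10600 to 12800 CPM. No adipocyte or Schwann cell marker of 9 each was called, with medians of -0.21 and -0.44. These lists summed to 1440 to 1680 and 64.3 to 89.7 CPM. Lpl made up most of the adipocyte sum, at 1280 to 1530 CPM. The other adipocyte markers, except Fabp4, were highest in vehicle replicate 1. Of 9 cartilage and bone markers, 2 were tested and none was called, Matn1 was at 0 and the others not tested had 1 to 14 counts over all libraries. Sox9 made up most of that list's sum of 14.4 to 40.5 CPM.

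The 5 genes outside the family whose profile over the 4 libraries lay nearest to the mean profile of the 9 members were Igfn1, Pls3, Snrk, Ttc28 and Tubgcp6. They were chosen from 7677 genes with at least 10 CPM by the Euclidean distance of centred log2 CPM, which was 0.0832 for Igfn1 and 0.0971 for Tubgcp6. Igfn1 had 32.5 and 30.3 CPM in mCDC replicates 1 and 2 and 45.6 and 47.4 CPM in vehicle replicates 1 and 2. With 4 libraries the profile holds little beyond the difference between the groups.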

How the data were processed

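Soleus RNA was sequenced as single-end reads. The values deposited by the authors are unnormalized expected counts per gene from RSEM, run on Bowtie 2 alignments to UCSC gene models. The submitters' processing notes name Bowtie2 2.1.0, RSEM 1.2.15 and mm10. The library kit is given as TruSeq Stranded mRNA in the sample records and as xGen Broad-Range in the methods. Samples were grouped by their titles.

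Counts were rounded, and the whole table was filtered with filterByExpr, scaled with TMM (trimmed mean of M-values) and tested by the quasi-likelihood F-test (legacy = FALSE) of edgeR 4.0.16 (R 4.3.3). The standard error is |log2 fold change| over the root of F. CPM on the log2 scale used a prior count of 2. The procedure was tested on simulated data. Libraries of a group differed by more than counting noise.

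Alternatives were DESeq2 1.42.0, the legacy test, RLE size factors, library totals only, no filter, at least 10 counts in every sample, a replicate block, per-library loess offsets for transcript length and GC content, and leaving out each library. Genes were paired with GENCODE M21 by 22750 own and 934 older names, and 370 were not paired.

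Ratios of the family sum to collagens, markers and Pdgfra were added after seeing the data. The members and lists were chosen with earlier results of these data known. Named are all members, the called genes of each list, some further list members chosen after their values were seen, and the 5 genes nearest in profile.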

Additional observations from a re-analysis of the deposited data

How the results depend on the processing

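The direction of each member's log2 fold change held under all alternatives run, including each library left out. All of these used the same libraries. Where a member's groups did not overlap, leaving out a library could hardly reverse its direction. Scaling by library totals only, which moved the calls over all genes from 374 lower and 172 higher to 508 lower and 121 higher, called 5 members lower, with Dcn at -0.63 and Bgn at -0.59 now called, and 0 partner genes higher. With the replicate number as a block, 3 members were called lower, 2 collagens lower, 1 linker and chondroitin sulfate gene lower and 1 higher, and 0 partners higher; over all genes 309 were lower and 172 higher. The numbers share no stated source, and same-numbered libraries deviated together at a correlation of only -0.0388 across genes. Linker and chondroitin sulfate genes called lower were 0 with DESeq2 or the length and GC trend removed and 1 with the legacy test, and 1 was called higher with RLE size factors, a minimum of 10 counts or the trend removed. Collagens called lower were 2 with the trend removed, keratan sulfate genes lower 0 with DESeq2, and partners higher 0 with no filter or at least 10 counts. The cause of these changes was not tested.

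With each library left out, where the lone library of a group is assumed to vary like the others, log2 fold changes ran from -0.88 to -0.09 for Dcn, -0.79 to -0.15 for Bgn, -0.77 to -0.08 for Aspn, -1.55 to -0.54 for Fmod, -1.41 to -0.47 for Lum, -0.71 to -0.30 for Prelp and -1.19 to -0.07 for Ogn. Called lower were 2 to 6 members, 0 to 1 other family genes, 0 to 3 linker and chondroitin sulfate genes (0 to 1 higher), 0 to 1 keratan sulfate genes, 2 to 7 collagens, 0 to 3 partners (0 to 2 higher) and 0 to 3 enzymes (0 to 1 higher). Calls over all genes also changed with the library left out. The family sum ratio ran from 0.596 to 0.795.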
